A study of Mus musculus with 18 samples.

Results

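The family of miR-148 and miR-152 consists of 3 microRNAs in the mouse, mmu-miR-148a-3p, mmu-miR-148b-3p and mmu-miR-152-3p, and all 3 were chosen here as entries of the deposited microRNA table, out of 1251 entries in all. Of these 3 members, 2 were detected in all 18 libraries and passed the filter on low values, whereas mmu-miR-152-3p was detected in only 5 libraries and did not pass. The microRNA with the highest level, miR-148a-3p, was about 2-fold higher in cutaneous squamous cell carcinoma (cuSCC) than in either papilloma (PAP) or chronically irradiated skin (CHR). For miR-148b-3p no difference between sample types passed the test, and miR-152-3p stood at the lowest value of the table in 13 of 18 libraries.

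MicroRNAs are short RNAs cut from hairpin precursors. One arm of the hairpin is usually retained by an Argonaute protein, which it guides to messenger RNAs that pair with its seed, the bases 2 to 8 counted from its 5′ end. Members of a family share the seed, so that they can bind the same messenger RNAs, although each is transcribed from its own gene. The family is known for targeting DNA methyltransferases, in particular DNMT1, the enzyme that copies CpG methylation onto newly made DNA, and its members have been described as silenced by promoter methylation in several carcinomas.

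The samples came from female littermates of the outbred SKH-1E Hairless strain, all exposed repeatedly to UVB from solar simulators from young adult age, so that no unexposed skin serves as the control. From each of 6 mice, numbered 2, 3, 7, 8, 9 and 10, one CHR sample (nonlesional, UV-exposed skin), one PAP and one cuSCC gave a small RNA library each, so that n = 6 for each sample type. Lesions were graded and their tumour content estimated by histology, and they retain stroma, vessels and infiltrating cells. The comparisons set nonlesional skin, a benign lesion and an invasive one side by side, and ask between which of them a microRNA differs. They are separate tissues, and no lesion was followed over time. Words such as rose and fell below refer to differences between sample types.

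The mature sequences, taken from RefSeq (GRCm38.p6), are shown with the seed in capitals because they show how little the 3 members differ.
mmu-miR-148a-3p: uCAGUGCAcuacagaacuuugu
mmu-miR-148b-3p: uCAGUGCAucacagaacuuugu
mmu-miR-152-3p: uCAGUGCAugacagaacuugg
No other mature microRNA of the RefSeq table shared the seed CAGUGCA. Counted from the 5′ end, miR-148a-3p and miR-148b-3p differed at 2 of 22 positions, C9U and U10C. Against miR-152-3p, miR-148a-3p differed at 3 of 21 positions, C9U, U10G and U20G, and miR-148b-3p at 2 of 21, C10G and U20G. How reads that fit more than one of these arms were assigned is not given in the sources used here.

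The opposite arms of the same hairpins are less alike, which makes them easier to tell apart by their reads.
mmu-miR-148a-5p: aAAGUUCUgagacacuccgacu
mmu-miR-148b-5p: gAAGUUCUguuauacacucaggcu
mmu-miR-152-5p: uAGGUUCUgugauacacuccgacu
The pair miR-148a-5p and miR-148b-5p shared a seed, AAGUUCU, and differed at 9 of 22 positions, while miR-152-5p had the seed AGGUUCU.

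The hairpins lie on 3 chromosomes of GRCm38 and are shown 5′ to 3′ with both mature arms in capitals. Mir148a was at chr6:51269812-51269910 on the minus strand, between genes, Mir148b at chr15:103285125-103285221 on the plus strand, in an intron of Copz1, and Mir152 at chr11:96850393-96850465 on the plus strand, in an intron of Copz2. Copz1 and Copz2 encode zeta subunits of the coatomer that coats vesicles of the early secretory pathway, and both hairpins lie on the same strand as their host gene.
Mir148a: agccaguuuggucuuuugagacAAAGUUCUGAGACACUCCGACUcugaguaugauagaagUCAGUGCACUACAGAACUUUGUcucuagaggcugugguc
Mir148b: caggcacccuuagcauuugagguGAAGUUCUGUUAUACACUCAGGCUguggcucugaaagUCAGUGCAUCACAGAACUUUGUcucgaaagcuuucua
Mir152: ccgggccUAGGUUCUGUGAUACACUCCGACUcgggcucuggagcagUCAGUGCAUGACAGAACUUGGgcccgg

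Levels are given as log2 ppm after quantile normalization, in which a difference of 1 is a 2-fold difference. The paper gives abundance as ppm of usable reads. In each library the linear values summed to 2.35 to 2.36 times the most that such shares can total. A level is therefore not a plain share of usable reads. Whether reads were counted for several entries at once was not tested. The normalization gives every library nearly the same set of values, so that a level shows where a microRNA ranks among the others. No value was below 3.32, the log2 of 10 ppm, and an entry at this value is called undetected. The depth of each library is unknown here, and no counting error is given. Detected entries numbered 236 to 365 per cuSCC library, 163 to 281 per PAP library and 200 to 328 per CHR library. The cuSCC of mouse 10 stood apart from the other cuSCC libraries: after the mean over all libraries was removed, its profile correlated at r = 0.70 with the mean of PAP and at r = -0.16 with that of the other cuSCC, against 0.27 to 0.68 for the other 5 cuSCC libraries. The family's results and the marker lists that rest on this library are therefore also given without it.

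miR-148a-3p was the member with the highest level in all 18 libraries. In CHR its level ranged from 10.89 in mouse 10 to 12.50 in mouse 9, with a median of 12.22, and in PAP from 11.49 in mouse 8 to 12.19 in mouse 9, with a median of 11.80. In cuSCC it was 13.02 in mouse 2, 13.65 in mouse 3, 13.33 in mouse 7, 13.26 in mouse 8, 13.10 in mouse 9 and 11.77 in mouse 10. Thus 5 of 6 cuSCC libraries were above every CHR and every PAP library, and mouse 10 was the exception, although its own cuSCC was above its own CHR and PAP. The mean of cuSCC was 13.02 ± 0.65 (SD, n = 6), that of CHR 11.99 ± 0.58 (n = 6) and that of PAP 11.83 ± 0.28 (n = 6). Without mouse 10 the mean of cuSCC was 13.27 ± 0.25 (n = 5).

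Between CHR and PAP the level of miR-148a-3p did not differ by more than the spread between mice, with a log2 fold change of -0.16 (SE 0.29, limma adjusted p = 0.692) and a 95% interval from -0.79 to 0.46. It rose in cuSCC relative to CHR by 1.03 (SE 0.36, limma adjusted p = 0.0335), a 2.04-fold difference with a 95% interval from 1.19 to 3.50. Relative to PAP it rose by 1.19 (SE 0.32, limma adjusted p = 0.0394), which is 2.29-fold, with an interval from 1.42 to 3.68. In exact permutation tests of this one microRNA, two-sided, p was 0.013 against CHR and 0.00866 against PAP, where 0.00216 is the smallest p that 6 against 6 libraries can give.

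Within mice, cuSCC was higher than CHR in 6 of 6, by 0.60 in mouse 9 to 1.41 in mouse 3, and higher than PAP in 6 of 6, by 0.16 in mouse 10 to 1.77 in mouse 8. Both exact sign-flip tests gave p = 0.0312, the smallest that 6 pairs allow. A block for mouse leaves the mean differences fixed in this balanced design. With it, the limma adjusted p was 0.0552 for the difference from PAP and 0.0229 for that from CHR. The adjusted p depended on single mice in both comparisons: against CHR it reached 0.0927 without mouse 2, 0.0962 without mouse 3, 0.0771 without mouse 7 and 0.0829 without mouse 8, and against PAP it was between 0.0714 and 0.172 without any of the mice 2, 3, 7, 8 and 9 and 0.00299 without mouse 10. Leaving out the cuSCC of mouse 10 alone gave 1.28 against CHR (limma adjusted p = 0.00523) and 1.44 against PAP (limma adjusted p = 0.00169).

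**Figure D1:**
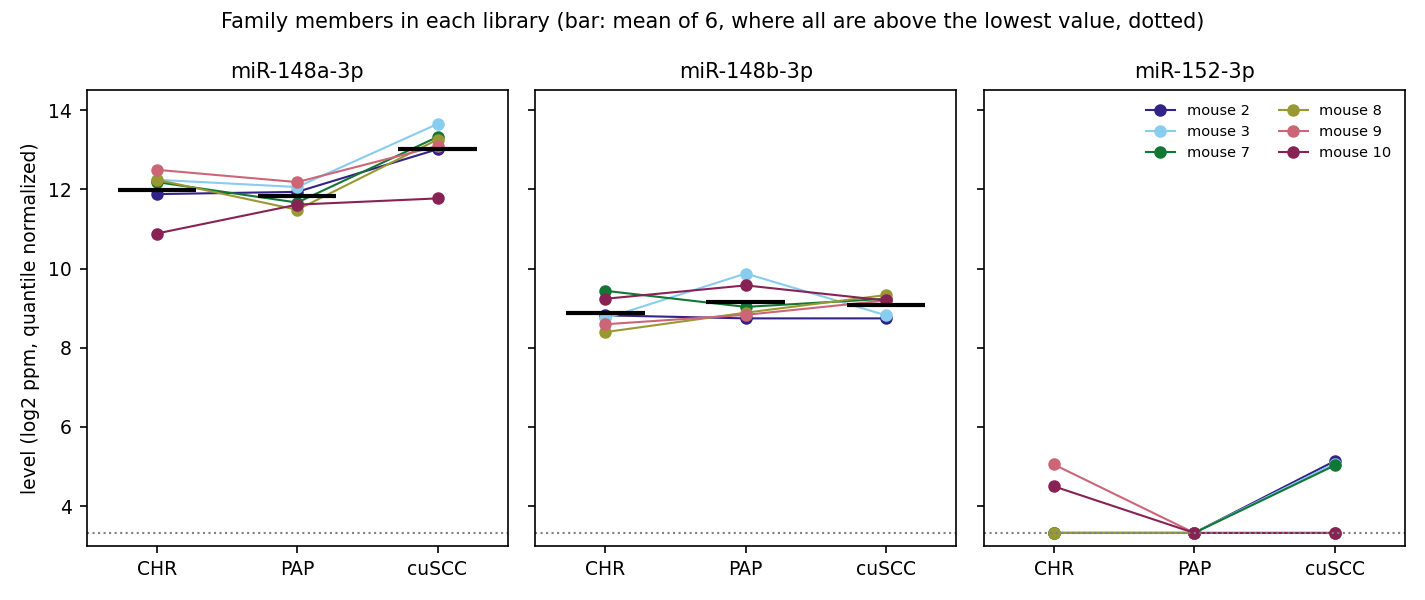
Levels of the 3 family members in each library (y axis, log2 ppm after quantile normalization) by sample type (x axis), with a line for each mouse, a black bar at the mean of 6 where all 6 were detected, and a dotted line at the lowest value, 3.32. miR-148a-3p was higher in cuSCC than in CHR and PAP in 6 of 6 mice, the 3 sample types overlapped for miR-148b-3p, and miR-152-3p left the lowest value in 5 libraries.

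miR-148b-3p was detected in every library at a level of 8 to 10. In CHR it ranged from 8.40 in mouse 8 to 9.44 in mouse 7, with a median of 8.78, in PAP from 8.74 in mouse 2 to 9.88 in mouse 3, with a median of 8.96, and in cuSCC from 8.74 in mouse 2 to 9.33 in mouse 8, with a median of 9.19. The 3 ranges overlapped, and no sample type was at one end of the order in every mouse. The log2 fold change was 0.29 between PAP and CHR (SE 0.28, limma adjusted p = 0.458), with a 95% interval from -0.32 to 0.89. It was 0.22 between cuSCC and CHR (SE 0.26, limma adjusted p = 0.522), with an interval from -0.35 to 0.78, and -0.07 between cuSCC and PAP (SE 0.26, limma adjusted p = 0.856), with an interval from -0.64 to 0.50. A 2-fold difference lies outside all 3 intervals, whereas smaller ones do not.

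miR-152-3p was above the lowest value in 2 CHR libraries, at 5.05 in mouse 9 and 4.50 in mouse 10, and in 3 cuSCC libraries, at 5.14 in mouse 2, 5.07 in mouse 3 and 5.03 in mouse 7. It was listed at the lowest value in the other 4 CHR, in all 6 PAP and in the other 3 cuSCC. No mouse had it in both CHR and cuSCC. It was therefore left out of the fit on which the calls rest. In a fit without the filter on low values none of its comparisons passed, with a limma adjusted p of 0.288 for PAP against CHR and, for cuSCC, 0.559 against CHR and 0.201 against PAP. The exact permutation p was 0.455, 0.394 and 0.182 in the same order.

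With 2 members tested, an adjusted p under 0.05 was reached by 0 of 2 between PAP and CHR, by 1 of 2 between cuSCC and CHR and by 1 of 2 between cuSCC and PAP. Among all 293 microRNAs tested, the share that passed in either direction was 32.4%, 42.3% and 11.6% in these comparisons, and the share that passed as higher in cuSCC was 20.1% against CHR and 9.22% against PAP. At a fold change of 1.5 with an unadjusted p under 0.05, the same counts of members passed, against 38.6%, 47.1% and 25.3% of all tested. The median log2 fold change over all tested microRNAs was -0.23, 0.11 and 0.21, and centring each library on its median left miR-148a-3p at -0.10, 1.04 and 1.13.

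Summed over the 3 members on the linear scale, the family had a mean log2 level of 13.13 ± 0.59 in cuSCC (SD, n = 6, range 12.0004 to 13.71), and of 13.35 ± 0.24 (n = 5) without mouse 10. The mean was 12.17 ± 0.46 in CHR (n = 6, range 11.30 to 12.60) and 12.05 ± 0.25 in PAP (n = 6, range 11.71 to 12.35). miR-148a-3p made up most of the sum in every library, with 85.5 to 96.4% of it in cuSCC libraries, 75.1 to 93.3% in those of CHR and 80.2 to 90.9% in those of PAP. The gap between miR-148a-3p and miR-148b-3p in the same library averaged 3.93 ± 0.75 (SD, n = 6) on the log2 scale in cuSCC, 3.12 ± 0.85 in CHR and 2.67 ± 0.53 in PAP. These are descriptions of chosen members, and whether the members responded differently was not tested.

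**Figure D2:**
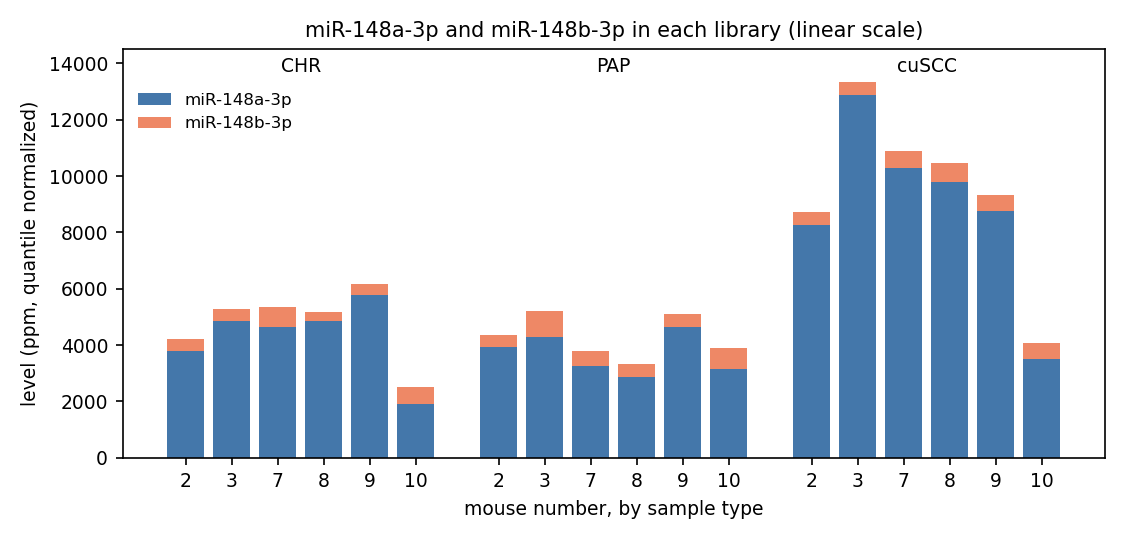
Stacked linear levels (y axis, ppm after quantile normalization) of miR-148a-3p and miR-148b-3p in the 18 libraries (x axis, mouse number within each sample type). miR-152-3p is left out as it made up under 1% of the sum. The cuSCC of mice 2, 3, 7, 8 and 9 stand above all CHR and PAP libraries, and the cuSCC of mouse 10 does not.

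The opposite arms come from the same hairpins, so their levels bear on the same primary transcripts through different reads. Of the 3 opposite arms, 0 passed the test between PAP and CHR, and 1, miR-148b-5p, passed as higher in cuSCC in both other comparisons. This arm met the filter on low values only with its cuSCC libraries counted, so its calls are not independent of the filter. Without the cuSCC of mouse 10, 2 passed against CHR, with miR-152-5p, and 0 against PAP. The median log2 fold change of the 3 arms was -0.27, 1.01 and 1.29 in the 3 comparisons, beside -0.23, 0.11 and 0.21 for all tested microRNAs.

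miR-148a-5p, the less abundant arm of the Mir148a hairpin, ranged from 6.73 in mouse 10 to 8.63 in mouse 7 in CHR, with a median of 8.05. It ranged from 7.24 in mouse 2 to 8.91 in mouse 10 in PAP, with a median of 8.32, and from 8.19 in mouse 3 to 10.54 in mouse 9 in cuSCC, with a median of 8.64. The sample types overlapped, and the single highest library was the cuSCC of mouse 9. The log2 fold change was 0.33 between PAP and CHR (SE 0.39, limma adjusted p = 0.543), 1.01 between cuSCC and CHR (SE 0.42, limma adjusted p = 0.0642) and 0.68 between cuSCC and PAP (SE 0.44, limma adjusted p = 0.315), none of which passed. At a fold change of 1.5 with an unadjusted p under 0.05 in the unmoderated equal-variance fit, it passed as higher in cuSCC than in CHR, and not in the other comparisons. The 3p arm exceeded the 5p arm of this hairpin by 4.15 ± 1.10 (SD, n = 6) in cuSCC, 4.13 ± 0.41 in CHR and 3.64 ± 0.76 in PAP.

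miR-148b-5p was near the limit of the table, detected in 4 of 6 CHR, 1 of 6 PAP and 6 of 6 cuSCC libraries. Without its cuSCC libraries it would not have met the filter on low values. Its highest CHR level was 4.96 in mouse 9, and in PAP it was at 5.18 in mouse 2 and at the lowest value in the other 5. In cuSCC it was 3.80 in mouse 2, 5.89 in mouse 3, 5.21 in mouse 7, 4.76 in mouse 8, 5.74 in mouse 9 and 5.78 in mouse 10. The cuSCC of mouse 2 was below the PAP of the same mouse, and the other 5 mice had more in cuSCC than in PAP. The log2 fold change was 1.30 against CHR (SE 0.42, limma adjusted p = 0.0235) and 1.57 against PAP (SE 0.44, limma adjusted p = 0.0402). With mouse as a block the limma adjusted p against PAP was 0.109. Both differences depend on how undetected values are set: with undetected entries at the lowest detected value of their library, the log2 fold changes were 0.86 (limma adjusted p = 0.152) and -0.36 (limma adjusted p = 0.633). Against CHR the p was also 0.0626, 0.0698 and 0.0673 without mouse 3, 7 or 10, and against PAP 0.072 to 0.176 without any one of mice 3, 7, 8, 9 and 10.

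For Mir152 the listed order of the arms was the reverse of the other hairpins, with miR-152-5p detected in 17 of 18 libraries and miR-152-3p in 5 of 18. In the same libraries miR-142-3p was detected in 2 and miR-142-5p in 18. Whether such values reflect the arms or how reads were counted was not tested. miR-152-5p ranged from 6.68 in mouse 7 to 7.58 in mouse 9 in CHR, with a median of 7.004. In PAP it ranged from the lowest value in mouse 10 to 8.24 in mouse 9, with a median of 6.61, and in cuSCC from 5.85 in mouse 10 to 8.25 in mouse 3, with a median of 7.95. In 4 of 6 mice, numbers 2, 3, 7 and 8, cuSCC was above every CHR library, while in mice 9 and 10 it was below the CHR of the same mouse. No comparison passed, with log2 fold changes of -0.82, 0.48 and 1.29 (limma adjusted p = 0.340, 0.332 and 0.252). Without the cuSCC of mouse 10, the difference from CHR was 0.82 (limma adjusted p = 0.0287). Without the PAP of mouse 10, which was at the lowest value, the log2 fold change was -0.23 for PAP against CHR and 0.70 for cuSCC against PAP, neither of which passed.

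**Figure D3:**
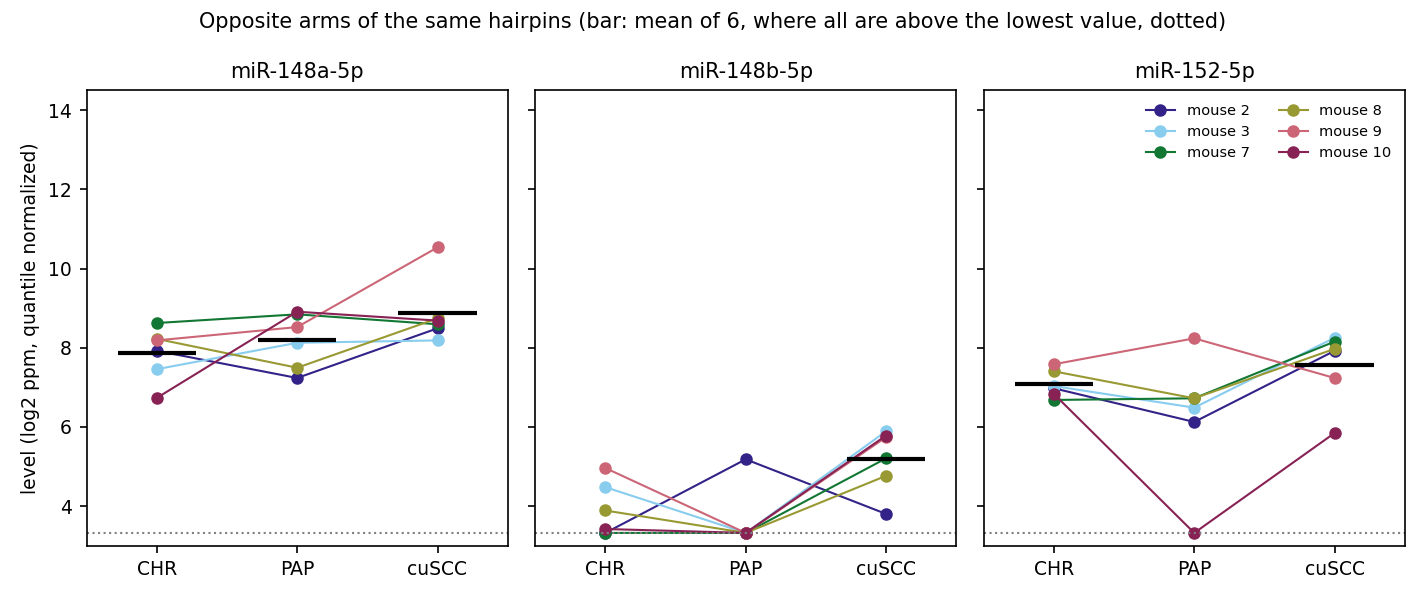
Levels of the opposite (5p) arms in each library (y axis, log2 ppm after quantile normalization) by sample type (x axis), drawn as in the plot of the 3 members. miR-148b-5p leaves the lowest value in 6 of 6 cuSCC libraries, miR-148a-5p has its highest library in mouse 9, and miR-152-5p is low in the PAP and cuSCC of mouse 10.

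**Figure D4:**
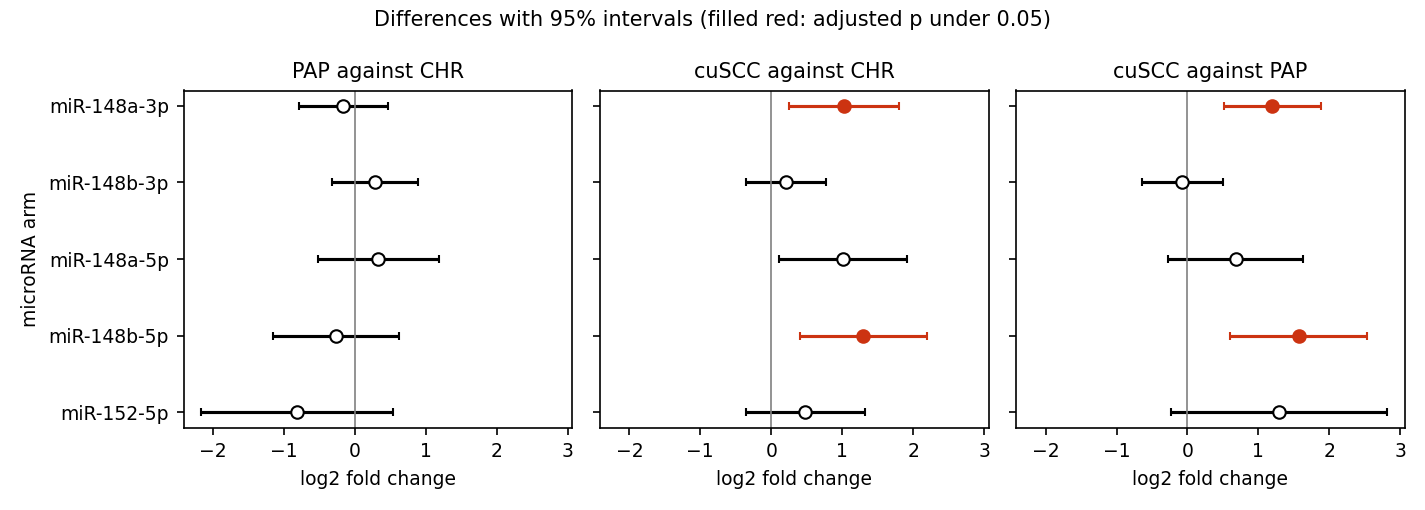
Log2 fold changes (x axis) of the 5 tested arms (y axis) in the 3 comparisons, with 95% intervals from limma and red filled points where the adjusted p was under 0.05. miR-148a-3p and miR-148b-5p are red in both cuSCC comparisons, and no arm is red between PAP and CHR.

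The DNA methyltransferases were searched for the sequence TGCACTG, the complement of the shared seed, on the sense strand of 1 transcript per gene in the GENCODE M21 annotation of GRCm38. A match is a description of the sequence only, and no messenger RNA was measured in these libraries. The 3′UTR of Dnmt1, 312 bases long, held 1 match, at base 23, in capitals below. Among 1992 3′UTRs of similar length, 3.16% held the same sequence, and 11.5% of all 20588 did.
Dnmt1 3′UTR, match at chr9:20907492-20907498, minus strand: agagccccacgTGCACTGatgtttttaac
Dnmt3a and Dnmt3b, which place new methylation, held 0 matches in their 3′UTRs and 1 each near the end of the coding sequence. Of 3′UTRs of similar length, 42.4% held a match for Dnmt3a and 13.1% for Dnmt3b. Of coding sequences of similar length, 23.6% and 22.4% held one at any position.
Dnmt3a coding sequence, match at chr12:3906867-3906873, plus strand: acatcctgtggTGCACTGaaatggaaagg
Dnmt3b coding sequence, match at chr2:153684461-153684467, plus strand: acgttttgtggTGCACTGagctcgaaagg

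A list of 9 other microRNAs with described methyltransferase targets was set beside the family, of which 5 were tested. Between PAP and CHR, 0 were higher and 2 lower, between cuSCC and CHR 1 was higher and 1 lower, and between cuSCC and PAP 2 were higher and 0 lower. This is 2 of 5 in each comparison, where 32.4%, 42.3% and 11.6% of all tested microRNAs passed in either direction. The median log2 fold changes of these 5 were -0.59, 0.45 and 0.91, beside -0.23, 0.11 and 0.21 for all tested microRNAs.

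miR-29a-3p, of the miR-29 family that is known for targeting Dnmt3a and Dnmt3b, had a median of 11.56 in cuSCC, 11.49 in CHR and 10.92 in PAP. Its log2 fold changes were -0.59, -0.06 and 0.53 (limma adjusted p = 0.0919, 0.885 and 0.255), and none passed. miR-29b-3p was at the lowest value in all 18 libraries and miR-29c-3p in 16.

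miR-126-3p, known as an endothelial microRNA, was between 8.79 in mouse 9 and 10.36 in mouse 3 in cuSCC, against 7.42 to 8.74 in CHR and 7.24 to 8.71 in PAP. All 6 cuSCC libraries were above all CHR and PAP libraries. It rose by 1.40 against CHR (SE 0.33, limma adjusted p = 0.00493) and by 1.59 against PAP (SE 0.36, limma adjusted p = 0.0319). The latter p was 0.0566 with mouse as a block, 0.129 without mouse 3, 0.115 without mouse 7 and 0.103 without mouse 8.

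miR-143-3p, abundant in smooth muscle and fibroblasts, was between 12.12 in mouse 10 and 15.03 in mouse 3 in cuSCC, against 13.17 to 14.03 in CHR and 10.48 to 13.10 in PAP. It fell in PAP relative to CHR by 1.53 (SE 0.40, limma adjusted p = 0.0125) and rose in cuSCC relative to PAP by 1.98 (SE 0.56, limma adjusted p = 0.0402). Without mouse 3 the adjusted p of the fall was 0.0513, and that of the rise was 0.0621 to 0.176 without any one of mice 2, 3, 7, 8 and 9. The PAP libraries were all below the CHR libraries, and the cuSCC of mouse 10 lay within the PAP range. The difference between cuSCC and CHR was 0.45 (limma adjusted p = 0.415), and 0.83 (limma adjusted p = 0.0468) without the cuSCC of mouse 10.

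miR-342-3p, an arm that is high in lymphocytes, was between 8.89 and 10.31 in cuSCC, against 11.42 to 13.43 in CHR and, in PAP, the lowest value in mouse 10 up to 10.54 in mouse 3. It fell by 3.66 in PAP (SE 1.08, limma adjusted p = 0.0248) and fell by 2.86 in cuSCC (SE 0.42, limma adjusted p = 0.000152) relative to CHR. Without mouse 10 the log2 fold change in PAP was -2.37, and without mouse 7 its limma adjusted p was 0.0712.

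miR-101a-3p, which is known to target the histone methyltransferase gene Ezh2, was detected in 3 CHR, 0 PAP and 4 cuSCC libraries, and none of its comparisons passed. miR-101b-3p was detected in 5 libraries and miR-185-5p in 4, and both were left out by the filter on low values. Without the filter neither passed in any comparison, with limma adjusted p between 0.183 and 0.803 for miR-101b-3p and between 0.354 and 0.609 for miR-185-5p.

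**Figure D5:**
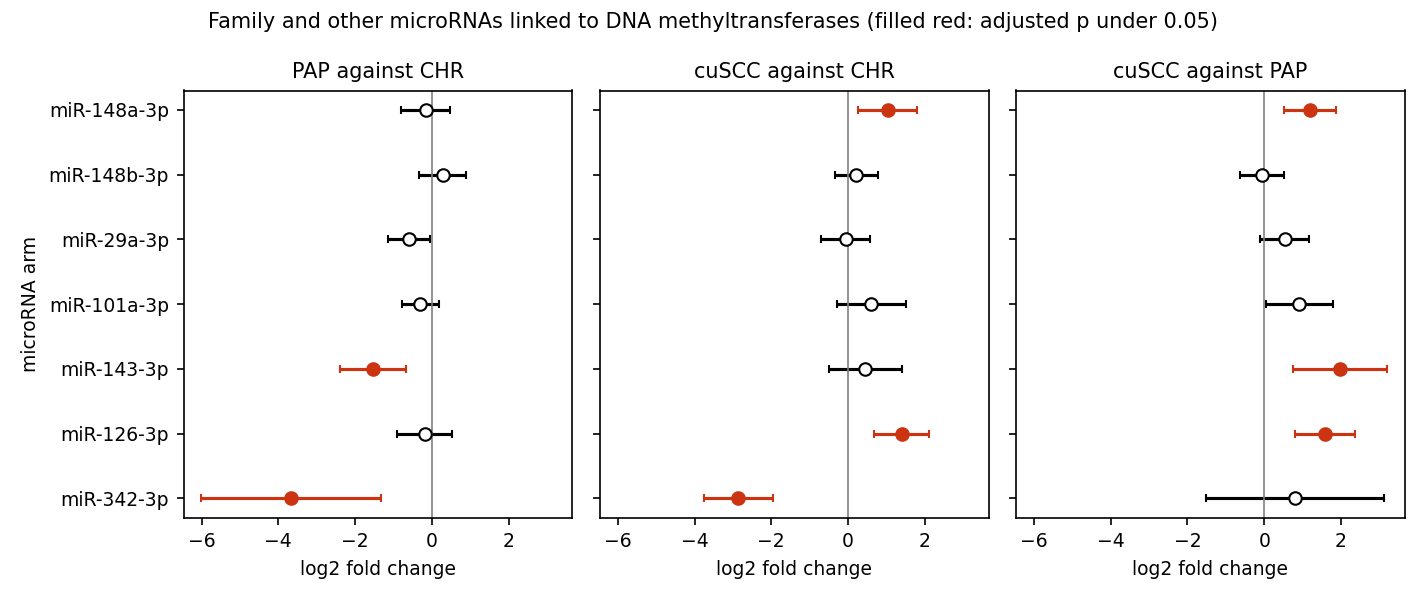
Log2 fold changes (x axis) of the 2 tested family members and of 5 other microRNAs with described methyltransferase targets (y axis) in the 3 comparisons, with 95% intervals from limma and red filled points where the adjusted p was under 0.05. miR-126-3p is red and to the right in both cuSCC comparisons, as is miR-148a-3p, and miR-342-3p is red and to the left relative to CHR.

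Lists of cell type markers were read between the same sample types, and their counts stand beside 32.4% (PAP and CHR), 42.3% (cuSCC and CHR) and 11.6% (cuSCC and PAP) of all tested microRNAs that passed in either direction. With few tested entries each, no list was tested as a whole. In bulk tissue, fewer cells of a type and less RNA per cell cannot be told apart. Of 2 endothelial entries, 2 were higher in cuSCC than in CHR and in PAP. Both are arms of the miR-126 hairpin and so are not independent. Their summed log2 level was 9.26 to 11.2 in cuSCC, 7.84 to 9.35 in CHR and 7.61 to 9.004 in PAP. miR-126-3p, and miR-143-3p of the fibroblast and smooth muscle list, are also among the microRNAs with described methyltransferase targets. Of 6 fibroblast and smooth muscle entries, 3 were lower in PAP than in CHR and 3 higher in cuSCC than in PAP. Their summed levels were 12.5 to 15.5 in cuSCC, 14.3 to 15.1 in CHR and 11.02 to 14.04 in PAP. Among those higher than in PAP, miR-199b-5p was detected in 2 CHR, 0 PAP and 5 cuSCC libraries. It met the filter on low values only with its cuSCC libraries counted. Between cuSCC and CHR, 0 of the 6 entries of this list were higher and 1 was lower. Without the cuSCC of mouse 10 it was 3 higher and 1 lower, and 5 of 6 were then higher than in PAP. The 3 then higher than in CHR were miR-143-3p, miR-199a-3p and miR-199a-5p. With this library left out, 44.7% of all tested microRNAs passed in either direction against CHR and 17.4% against PAP. The part of the endothelial and fibroblast lists in the level of miR-148a-3p was not tested.

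Of 4 skeletal muscle entries, 3 were tested, and all 3 were lower in PAP than in CHR and higher in cuSCC than in PAP, while 1 of 3 was lower in cuSCC than in CHR. Of these, miR-133b-3p and miR-206-3p were each detected in 6 CHR, 0 PAP and 5 cuSCC libraries. They met the filter on low values only with their CHR libraries counted, so their calls between PAP and CHR are not independent of the filter. The summed level of the skeletal muscle list was 6.04 to 14.2 in cuSCC, 15.4 to 15.98 in CHR and 5.32 to 12.4 in PAP. Of 7 epithelial entries, 4 were higher in PAP and 3 in cuSCC than in CHR (2 without the cuSCC of mouse 10), and 1 was lower in cuSCC than in PAP, with summed levels of 17.5 to 18.5 in cuSCC and in CHR and 17.8 to 18.6 in PAP. The sum was set mainly by its most abundant entries, and miR-200a-3p was at the lowest value in 3 of 18 libraries. Of 5 leukocyte entries, 3 were tested, and 0 were higher and 1 lower in PAP than in CHR, 1 higher and 1 lower in cuSCC than in CHR, and 1 higher in cuSCC than in PAP. Their summed levels were 10.8 to 12.3 in cuSCC, 12.1 to 13.1 in CHR and 9.03 to 11.2 in PAP, and of the arms of the defining Mir142 hairpin, miR-142-3p was at the lowest value in 16 of 18 libraries. The other arm, miR-142-5p, was detected in all 18 and rose in cuSCC by 1.53 against CHR (limma adjusted p = 0.0132) and by 2.53 against PAP (limma adjusted p = 0.0018). In contrast, miR-150-5p, also detected in all 18, was lower than in CHR. Its log2 fold change was -2.62 in PAP and -2.33 in cuSCC (limma adjusted p = 0.000641 and 0.000927). No comparison of miR-223-3p passed. Of 3 erythroid entries, 2 were tested, and they went in opposite directions between cuSCC and CHR only. Relative to CHR, miR-451a rose by 4.78 in PAP and by 3.99 in cuSCC (limma adjusted p = 0.00106 and 0.000747). In cuSCC, miR-486-5p fell by 1.27 against CHR and by 1.83 against PAP (limma adjusted p = 0.0325 and 0.0394). Between PAP and CHR, miR-486-5p was at 0.55 (limma adjusted p = 0.208). Between cuSCC and PAP, miR-451a was at -0.78 (limma adjusted p = 0.599). Summed levels were 14.9 to 17.9 in cuSCC, 16.7 to 17.8 in CHR and 16.7 to 18.2 in PAP. They were set mainly by miR-486-5p, whose mean in CHR was 17.1, against 5.51 for miR-451a.

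The cuSCC of mouse 10, the lowest cuSCC for miR-148a-3p, was also the lowest cuSCC for the fibroblast and smooth muscle list, at 12.5 against 14.4 to 15.5 in the other 5. For the skeletal muscle list it was at 6.04 against 13.6 to 14.2, and for the erythroid list it was the highest, at 17.9 against 14.9 to 15.9. For the epithelial list it was at 18.54, as was mouse 2, and mouse 9 was at 18.52. These sums were set mainly by miR-205-5p, which had rank 1 at 18.47 in the cuSCC of mice 2, 9 and 10. For the endothelial list the cuSCC of mouse 10 lay second from the lowest, at 9.93. For the leukocyte list it was the lowest, at 10.8 against 10.9 to 12.3. The CHR of mouse 10 was the lowest CHR for miR-148a-3p, at 10.89. It was the highest CHR for the fibroblast and smooth muscle list (15.1), the endothelial list (9.35) and the leukocyte list (13.1). For the epithelial list it was the lowest CHR (17.5), and for the skeletal muscle and erythroid lists it lay between the others. Whether these differences bear on miR-148a-3p in these libraries was not tested.

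Across the 18 libraries, the tested entries whose levels were most like miR-148a-3p were miR-199a-3p and miR-199b-3p, with identical values and r = 0.80, and miR-434-3p, with r = 0.72. With the mean of each sample type removed, these were 0.68 and 0.65. The level of miR-199a-3p averaged 11.8 in cuSCC, 10.6 in CHR and 9.13 in PAP, and this entry belongs to the fibroblast and smooth muscle list. The arms of the family followed miR-148a-3p less closely, at r = 0.48 for miR-148a-5p, 0.60 for miR-148b-5p and 0.61 for miR-152-5p, and miR-148b-3p was at -0.12. With the mean of each sample type removed, r was 0.23, 0.17 and 0.52 for these 5p arms and -0.25 for miR-148b-3p. For miR-148b-3p the nearest entries were miR-331-3p (r = 0.56), miR-186-5p (0.53) and miR-183-5p (0.50). These are descriptions over 18 libraries of 6 mice that share sample type and normalization.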

How the data were processed

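Small RNA was sequenced from CHR, PAP and cuSCC of 6 mice. After adapter trimming and removal of short or homopolymer-ended reads, the authors matched reads to miRBase by BLAST and gave abundance as ppm of usable reads. The deposited values are read as log2 ppm, but their linear sums exceed what shares of usable reads can total. Quantile normalization and the lowest value of 10 ppm were read from the values, and the labels name mm10. Whether reads matching several arms were divided between them or counted for each is not given in the sources used here.

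The 293 of 1251 entries detected in 6 or more of the 18 libraries were tested pairwise with limma 3.58.1 in R 4.3.3 (lmFit, eBayes, two-sided, no block, 6 libraries a sample type), with Benjamini-Hochberg adjustment over all 293. Exact tests were also run in R. Sums and plots used numpy 2.4.6, pandas 2.3.3 and matplotlib 3.10.9 in Python 3.11.15. The limma fit was tried on simulated normal values without a floor, ties or pairing, with shifts larger than that of miR-148a-3p. Whether it recovers differences of the size seen for miR-148a-3p was not tested. Each sample type has 1 sample per mouse, so p-values measure the spread between mice.

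The named microRNAs are the 3 members, their opposite arms, entries sharing the seed (no others), 9 microRNAs with described methyltransferase targets, and for each tested member the 3 entries with the highest Pearson r. Marker lists covered endothelium, epithelium, skeletal muscle, leukocytes, erythroid cells, and fibroblasts with smooth muscle. The members and lists were chosen with earlier results of these data known.

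The sample numbers are mouse numbers, which pairs the libraries. Their deviations from the group means correlated at 0.025 (PAP and CHR), -0.0676 (cuSCC and CHR) and 0.0582 (cuSCC and PAP) on average, over 0.1 in 2, 1 and 2 of 6 mice. Alternatives were other filters, one fit on all sample types, a mouse block, centring, other values for undetected entries, a floor of 100 ppm, an unmoderated equal-variance test and leaving out each mouse. Leaving out the cuSCC or the PAP of mouse 10 alone was added after seeing the data. Human samples were not analysed here.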

Additional observations from a re-analysis of the deposited data

Results flagged for a closer look

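In 5 of 34 groups of 6 libraries examined, one library lay farther from the others than Dixon's 95% limit for 6 samples allows, and chance gives about 1 in 20. In cuSCC, mouse 10 was low for miR-148a-3p, at 11.77 against 13.02 for the nearest library, and for the summed log2 level of the family, at 12.0004 against 13.09, which follows from the same value. Mouse 9 was high in cuSCC for miR-148a-5p, at 10.54 against 8.74. In PAP, mouse 2 was the only library with miR-148b-5p, at 5.18 against 3.32. With all others tied at the lowest value, any detected level would be flagged, so the rate of 1 in 20 does not apply there. Mouse 10 was the only PAP library with miR-342-3p at the lowest value, 3.32 against 8.13.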

How the results depend on the processing

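For miR-148a-3p, detected in all 18 libraries, only centring and leaving out libraries could change the log2 fold change. With these it stayed higher in cuSCC than in CHR and PAP. The other alternatives leave its log2 fold change fixed and bear only on its p. Against CHR, 1 family member passed under every other alternative and 0 to 1 with a mouse left out. Against PAP, 0 passed without a filter on detection, with a floor of 100 ppm, with the unmoderated test and without the PAP of mouse 10, 0 to 1 with a mouse left out, and 0 with mouse as a replicate block. Between cuSCC and PAP, the block also ended the calls of miR-148b-5p and miR-126-3p. It changed no other call of the members, their opposite arms or the list with methyltransferase targets. The number of all microRNAs called between cuSCC and PAP, 34, was 8 without a filter, 21 with detection in at least 12 libraries, 2 with the 100 ppm floor, 80 with undetected entries at their library's lowest detected value, 6 with the unmoderated test, 1 to 59 with a mouse left out, and 51 or 15 without the cuSCC or PAP of mouse 10. With the 100 ppm floor, 57 were called between PAP and CHR instead of 95 and 80 between cuSCC and CHR instead of 124, and a mouse left out gave 55 to 79 and 77 to 129. Setting undetected entries at the lowest detected value moved the median of all tested microRNAs to 0.44, -0.04 and -0.48 in the 3 comparisons, and the calls between cuSCC and PAP from 27 higher and 7 lower to 18 and 62, and those between PAP and CHR from 41 and 54 to 63 and 37.

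Directions turned for some results that had not passed and for one that had. Between PAP and CHR, miR-148a-5p was at -0.0383 without mouse 10 (-0.0383 to 0.54 with a mouse left out), miR-148b-5p at 0.00748 without mouse 9 (-0.69 to 0.00748) and at 1.21 with undetected entries at the lowest detected value, and miR-101a-3p at 1.20 with the latter. Between cuSCC and CHR, miR-29a-3p was at 0.16 without mouse 9, 0.11 without mouse 10 and 0.0492 without the cuSCC of mouse 10 (-0.21 to 0.16). Between cuSCC and PAP, miR-148b-3p was at 0.13 without mouse 3 and 0.0127 without the PAP of mouse 10 (-0.17 to 0.13), and miR-342-3p at -0.15 without mouse 10 and -0.29 without its PAP (-0.15 to 1.252). With undetected entries at the lowest detected value, miR-101a-3p was at -1.02 and miR-148b-5p, which had passed, at -0.36. The cause was not tested. With the 100 ppm floor miR-148b-5p and miR-101a-3p give no value. Unknown depth limits all low entries.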
